A study of Mus musculus with 18 samples.

Results

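The genes described here are 46 genes of mitosis and the kinetochore, taken by symbol from a table of 16614 genes measured in cultured mouse dendritic cells. All 46 symbols were found in the table, and all 46 passed the filter on low counts that kept 11989 genes for testing. The list spans 11 roles, from cyclins and the spindle checkpoint to kinesins, cytokinesis and condensin. RNA was sequenced from 18 libraries of bone marrow-derived dendritic cells (BMDC), grown with GM-CSF and Flt3L for 7 to 10 days and selected on XCR1, a surface receptor of type 1 conventional dendritic cells (cDC1), by cell sorting or with magnetic beads. The 4 groups were KO cells given lipopolysaccharide (LPS, n = 5), WT cells given LPS (n = 5), untreated KO cells called KO control (n = 4) and untreated WT cells called WT control (n = 4). LPS is a bacterial cell wall component that activates dendritic cells through Toll-like receptor 4. The labels name neither the deleted gene nor a Cre line, strain or age of the mice, nor the dose and time of LPS, nor which selection a sample had. They also do not say whether replicates came from separate cultures or animals, so p-values measure only the spread between these samples, which may be technical.

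In mitosis, CDK1 with its cyclins drives entry, condensin compacts the chromosomes, and kinetochores built on centromeres hold them on spindle microtubules. The spindle checkpoint keeps the ubiquitin ligase APC/C from releasing sister chromatids until every kinetochore is attached, and kinesins and RhoA regulators then part the daughter cells. Many of these genes are transcribed late in the cell cycle through a promoter element called CHR (cell cycle genes homology region) that acts together with CCAAT boxes. Dendritic cell precursors divide in bone marrow culture, and mature dendritic cells are known as cells that divide little.

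Most of the promoter windows examined held CHR letters, so windows of 8 members are shown: Kif4 and Cenpe, which rose with LPS in KO cells with TMM scaling factors and with library totals alone, Ttk, Kif23 and Cdc20, which were among the largest falls, and Top2a, Kif11 and Mki67 as widely used markers of dividing cells. They are RefSeq sequence of build GRCm38.p6 (the deposited table used GRCm39), read from 120 bases before to 30 bases after the transcript start. Capitals mark the CHR letters TTTGAA and the CCAAT letters, each also where it reads backwards on the opposite strand, as TTCAAA for the first and as ATTGG for the second.
Kif4 (chrX:100625945-100626094, plus strand): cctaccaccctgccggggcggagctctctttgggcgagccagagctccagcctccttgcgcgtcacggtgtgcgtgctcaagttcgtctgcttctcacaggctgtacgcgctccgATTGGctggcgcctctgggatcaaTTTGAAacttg
Cenpe (chr3:135212443-135212592, plus strand): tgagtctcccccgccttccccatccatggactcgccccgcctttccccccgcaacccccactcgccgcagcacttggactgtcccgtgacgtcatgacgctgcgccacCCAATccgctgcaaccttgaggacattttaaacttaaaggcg
Ttk (chr9:83834569-83834718, plus strand): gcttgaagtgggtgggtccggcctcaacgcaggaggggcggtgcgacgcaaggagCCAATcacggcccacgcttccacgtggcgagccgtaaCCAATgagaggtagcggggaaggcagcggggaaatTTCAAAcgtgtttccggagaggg
Kif23 (chr9:61946770-61946919, minus strand): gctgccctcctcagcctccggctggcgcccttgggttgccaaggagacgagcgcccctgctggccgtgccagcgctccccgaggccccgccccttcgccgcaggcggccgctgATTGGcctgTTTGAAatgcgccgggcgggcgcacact
Cdc20 (chr4:118437314-118437463, minus strand): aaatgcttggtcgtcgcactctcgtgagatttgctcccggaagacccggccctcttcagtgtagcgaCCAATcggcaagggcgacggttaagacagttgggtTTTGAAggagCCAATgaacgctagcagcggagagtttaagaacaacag
Top2a (chr11:99024160-99024309, minus strand): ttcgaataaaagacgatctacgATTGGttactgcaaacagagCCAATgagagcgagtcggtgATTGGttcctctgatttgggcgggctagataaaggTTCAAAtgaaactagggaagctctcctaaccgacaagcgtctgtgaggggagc
Kif11 (chr19:37376262-37376411, plus strand): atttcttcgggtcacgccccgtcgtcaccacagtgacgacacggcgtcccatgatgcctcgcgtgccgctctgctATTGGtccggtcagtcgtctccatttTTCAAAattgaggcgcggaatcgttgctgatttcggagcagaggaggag
Mki67 (chr7:135716350-135716499, minus strand): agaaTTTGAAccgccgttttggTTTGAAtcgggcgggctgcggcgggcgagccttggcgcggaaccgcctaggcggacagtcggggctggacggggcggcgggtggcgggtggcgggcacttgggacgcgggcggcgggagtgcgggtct
Ttk, Kif23, Cdc20, Top2a and Kif11 each had CHR letters within 40 bases of the start and CCAAT letters before the start. Kif4 had both as well, with CHR letters at 19 bases after the start and CCAAT letters at -5. Cenpe had CCAAT letters at -12 with no CHR letters in its window. Mki67 had CHR letters farther off, at -116 and -98.

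RefSeq windows of 300 bases, 250 before and 50 after the start, were matched for 39 of the 46 genes, with 43 windows because some genes have more than 1 start. CHR letters on either strand were in 31 of the 43 windows (72.1%), against 17.9% of all 32851 windows of this length. CCAAT letters were in 33 windows (76.7%), against 37.4% of all windows, and both were in 26 windows (60.5%), against 6.95%. In 26 genes the CHR letters lay within 40 bases of the start. The E2F letters TTTGGCGC were in 2 windows (4.65%), against 0.514% of all windows, and TTTCCCGC in 1 window (2.33%), against 1.07%. CHR and CCAAT letters overlapped at 1 place. Ccna2, Aurkb, Incenp, Spc24, Kif20a, Tpx2 and Smc4 had no window in the table used. A match of letters is a description of sequence and does not show that a factor was bound.

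**Figure D1:**
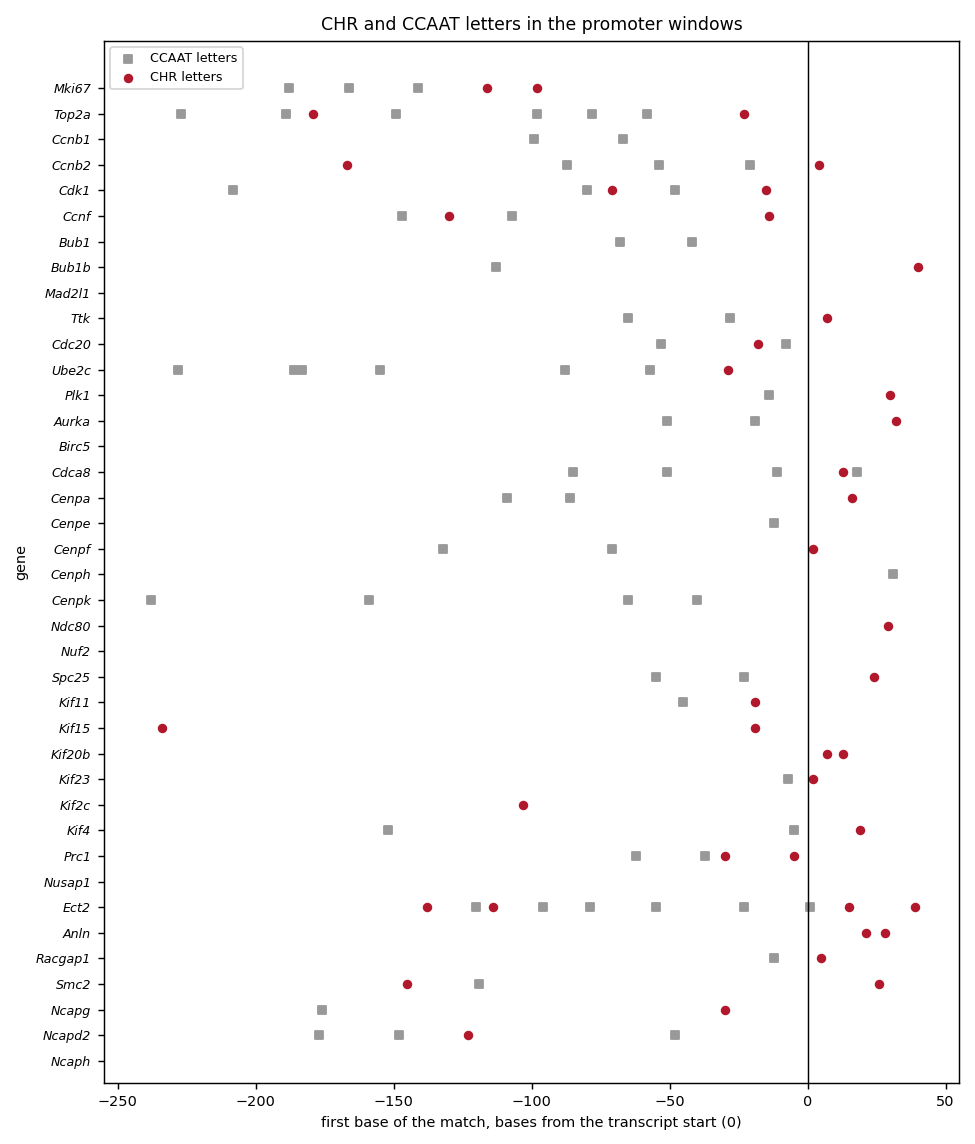
Position of CHR letters (red circles) and CCAAT letters (grey squares) in the promoter windows of the 39 genes with a RefSeq window; the x axis gives bases from the transcript start and rows are genes. Most red circles lie within 40 bases of the start and most grey squares before it. Where a gene has more than 1 window, as Ect2 has, matches from all of them are drawn.

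Library totals lay between 25590104 and 27375189 estimated counts, and levels below are CPM, the count of a gene as a share of its library total scaled with TMM factors. Those factors averaged 0.769 in KO LPS, 0.814 in WT LPS, 1.32 in KO control and 1.36 in WT control, so the counts of LPS libraries were spread over genes in another way than those of control libraries. All 13 cDC1 markers on the list passed the filter, with summed levels of 1971 to 2416 TPM (transcript levels scaled by length and library) in KO LPS, 2227 to 2921 in WT LPS, 4616 to 5232 in KO control and 5008 to 5406 in WT control. One library stood apart: WT LPS replicate 2 was the lowest WT LPS library for 46 of the 46 genes. Its mean log2 CPM over the genes was 3.78, against 4.61 to 4.98 in the other WT LPS libraries and 4.03 to 4.44 in KO LPS. For the 46 genes together, genotype and interaction calls and medians that rest on it are given with and without it. So is the median LPS change in WT cells. Fold changes of single genes and results of other gene lists are given with it only.

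Summed over the 46 genes, transcript levels were lower in KO than in WT and lower with LPS than without. These are TPM sums without TMM factors, so their LPS changes are not on the scale of the fold changes below. The sum was 595 ± 65.2 TPM in KO LPS and 819 ± 238 TPM in WT LPS (SD, n = 5 each), and 1592 ± 56.4 TPM in KO control and 2369 ± 156 TPM in WT control (SD, n = 4 each). Control groups did not overlap (1518 to 1646 TPM in KO, 2194 to 2572 TPM in WT). LPS groups did (488 to 659 TPM in KO, 427 to 1018 TPM in WT), through WT LPS replicate 2 with the 427. In bulk RNA, fewer dividing cells and less RNA per dividing cell cannot be told apart. Per length, the most abundant members were Top2a, Ube2c and Birc5, at means of 96.0, 80.8 and 73.0 TPM over the 18 libraries, and the least abundant was Ttk at 4.61 TPM.

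Without stimulation, 46 of 46 genes had a lower mean in KO than in WT, against 42.7% of all genes tested, and 4 passed the test. These were Mki67, which encodes the Ki-67 protein that coats mitotic chromosomes, the kinetochore motor Cenpe, the chromosome-bound kinesin Kif4 and the spindle factor Tpx2. Across all genes tested, 0.525% were called lower in KO and 1.89% higher (edgeR quasi-likelihood test, Benjamini-Hochberg adjusted p under 0.05), and no member was called higher. At an unadjusted p under 0.05, 41 members were lower and 0 higher, while 1665 of the 11989 genes differed in either direction. In 42 of 46 genes all KO values were below all WT values, as they were for 5.45% of all genes. The median log2 fold change of the members was -0.48, against 0.02 over all genes tested, and it ranged from -0.68 in Cenpf to -0.06 in Cenpk.

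The size of this difference was steadier than its calls. WT LPS replicate 2, which is in neither control group, enters the estimate of spread that all 4 groups share: without it 41 members were called lower (against 270 of all genes), and a fit of the control groups alone called 44 (against 405). Ttk, Cenph, Cenpk, Spc25 and Kif23 were the 5 not called without that library. By DESeq2 14 were called (163 of all genes), by limma-voom 10 (105), and with the run of library numbers as a block 18 (163). The median stayed at -0.48 without WT LPS replicate 2. Libraries with neighbouring library numbers, the nearest the labels come to a batch, gave 46, 46, 46 and 43 of 46 genes lower in KO, with median differences of -0.58, -0.48, -0.60 and -0.22. Over all genes tested, 42.7% to 47.0% were lower in KO in these pairs, with medians of 0.01 to 0.03.

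With LPS, 46 of 46 genes again had a lower fitted mean in KO than in WT, against 54.3% of all genes tested. Of the members, 7 passed the test: Mki67, the cyclins Ccna2 and Ccnb2, the passenger complex subunit Birc5, the NDC80 subunit Nuf2 and the condensin subunits Smc4 and Ncaph. Over all genes tested, 5.5% were called lower and 5.3% higher in KO. The median log2 fold change was -0.45, against -0.02 over all genes, and 40 members were lower and 0 higher at an unadjusted p under 0.05. At that threshold 3147 of the 11989 genes differed in either direction. Each of the 7 calls ended when any 1 of 6 to 15 single libraries was left out, with adjusted p-values up to 0.132. Values ranged from -0.69 in Cdc20 to -0.08 in Cenpe.

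In 0 of 46 genes did the LPS groups stand clear of each other, against 3.2% of all genes with KO lower and 3.31% with KO higher, and WT LPS replicate 2 decided this. Without it 40 of 46 genes had all KO values below all WT values, against 9.61% of all genes, and the test called 45 members lower (1694 of all genes), all but Cenpe, with a median of -0.62. Among pairs of neighbouring library numbers, the pair with that WT library gave 46 of 46 genes higher in KO, by a median of 0.52. The other pairs gave 46, 46, 46 and 45 of 46 genes lower in KO, with medians of -0.83, -0.54, -0.66 and -0.32. Over all genes tested, 49.0% to 53.2% were lower in KO across all these pairs, with medians of -0.02 to 0.005. The labels of that pair, WT LPS replicate 2 and KO LPS replicate 2, were used as given. The deleted gene, against which they could be checked, is not named, so an exchange of the 2 labels was not tested and would change the LPS genotype values. Without both libraries 45 members were called lower (1484 of all genes), with a median of -0.60. A fit of the LPS groups alone called 0 members lower (313 of all genes), limma-voom 1 (519), DESeq2 18 (700), and a fit with the run of library numbers as a block 19 (950). With totals alone 18 members were called, and 1192 of all genes were lower and 356 higher, against 659 and 635 with TMM factors.

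**Figure D2:**
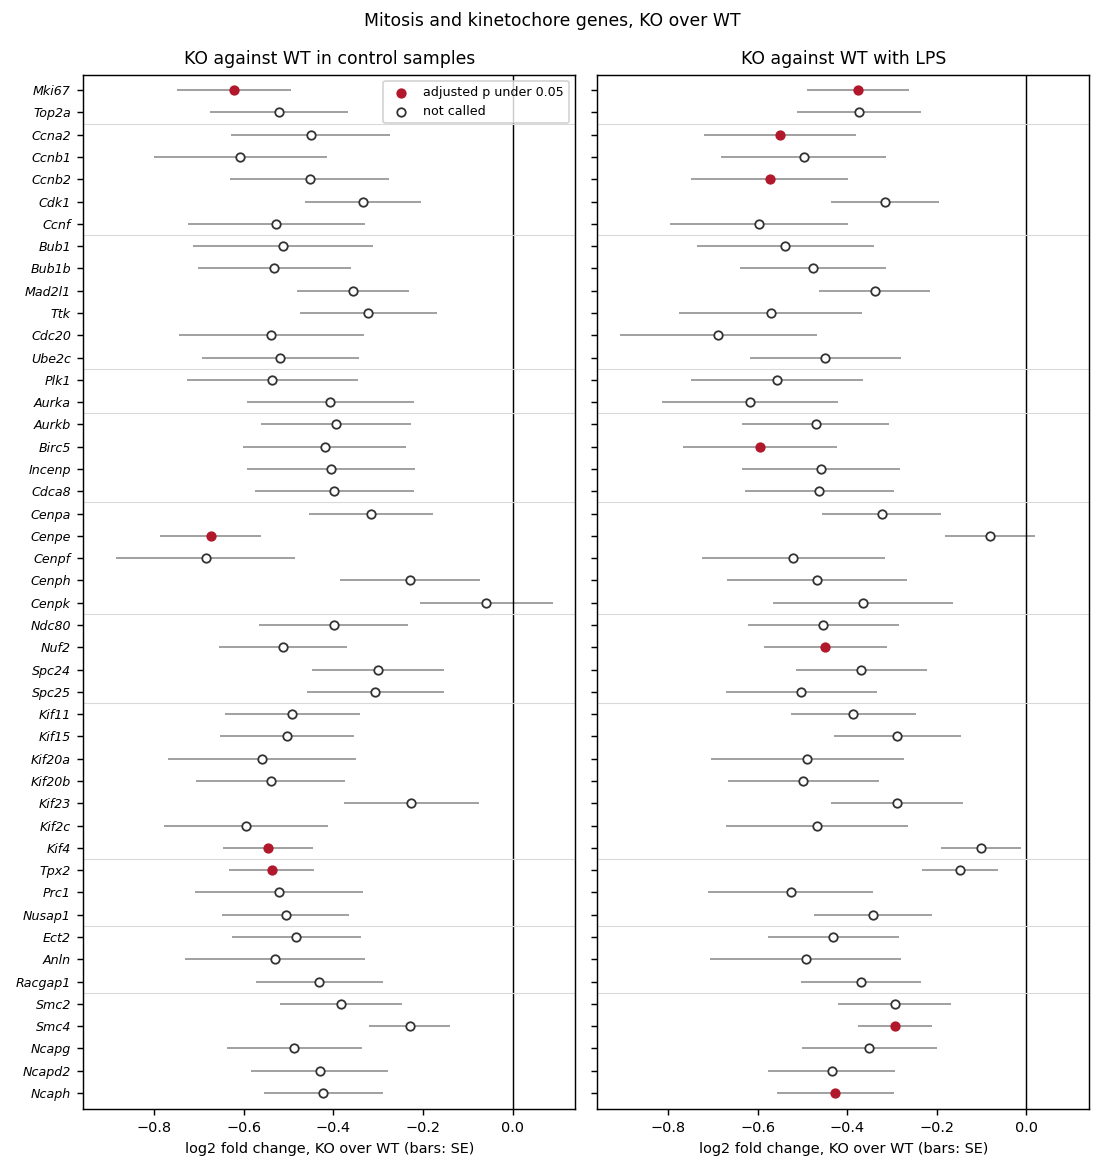
Log2 fold change of KO over WT (x axis, bars are standard errors) for each of the 46 genes (rows, grouped by role) in control samples (left) and with LPS (right); red points passed the test at an adjusted p under 0.05. All points lie left of 0 in both panels, 4 are red in control samples and 7 with LPS, and Cenpe, Kif4 and Tpx2 are nearest to 0 with LPS.

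LPS lowered most of these genes in both genotypes. In KO cells 39 of 46 fell and 3 rose, against 46.2% of all genes called lower and 40% called higher, with a median log2 fold change of -1.02 in the members and -0.10 over all genes. In WT cells 41 fell and 3 rose, against 44.7% and 40.7% of all genes, with medians of -1.05 and -0.06. Without WT LPS replicate 2 these medians in WT cells were -0.89 and -0.06. LPS libraries did not overlap control libraries in 39 lower and 3 higher members in KO cells, against 44% and 37.8% of all genes, and in 39 lower and 1 higher in WT cells, against 41.3% and 36.6%. The 39 genes that fell in KO cells also fell in WT cells, and the 3 that rose with TMM factors were Kif4, Cenpe and Tpx2 in both, of which 2 rose in KO cells and 0 in WT cells with totals alone. Largest were the falls of the checkpoint kinase Ttk and the midzone kinesin Kif23, followed by the centromere subunit Cenpk in KO cells and by Cenpf in WT cells. Not called in either genotype were Cdk1 and Nusap1, and in KO cells also Mki67 and Ccnb1.

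How far the LPS change is read depends on scaling, since the LPS libraries differ in composition. With totals alone and no scaling factors, the median of all genes moves to -0.88 in KO and -0.80 in WT, and the members' medians to -1.80 and -1.78. Over all genes, 8437 were then called lower and 2416 higher in KO (8375 and 2379 in WT), against 5544 and 4794 (5362 and 4884 in WT) with TMM factors. Relative to the median of all genes, the members lay lower by 0.92 with TMM factors and by 0.91 with totals in KO cells, and by 0.99 and 0.98 in WT cells.

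**Figure D3:**
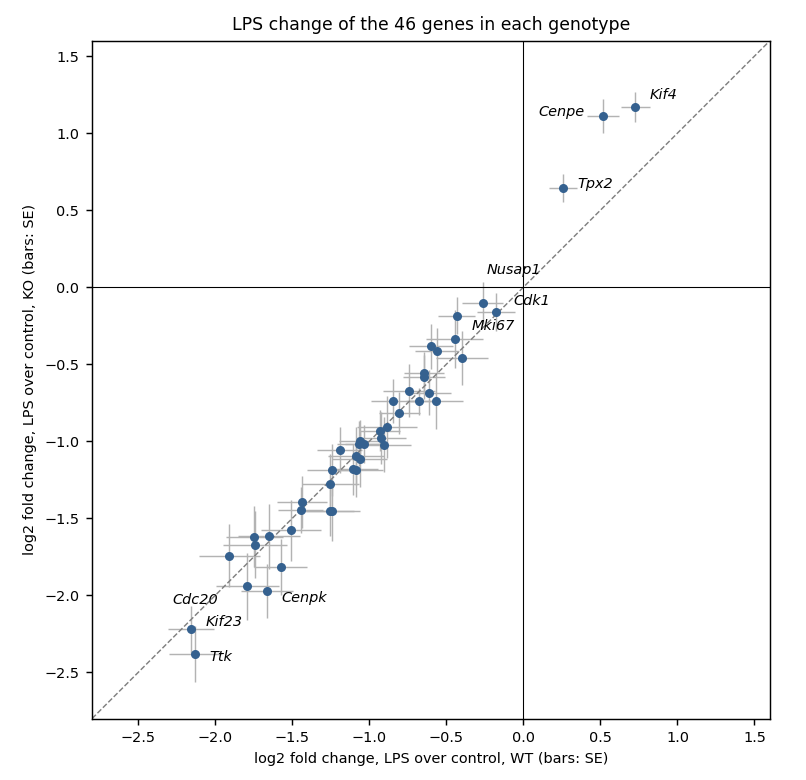
Log2 fold change of LPS over control in KO cells (y axis) against that in WT cells (x axis) for each of the 46 genes, with standard errors as bars and equality as the dashed line. Most genes lie near the line between 0 and -2.38, while Kif4, Cenpe and Tpx2 are above 0 on both axes and above the line; with totals in place of TMM factors, Tpx2 is below 0 in both genotypes and Cenpe and Kif4 are below 0 in WT.

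Of the chromosome and proliferation genes, Mki67 had 273, 355, 335, 290.2 and 331 CPM in KO LPS libraries, against 389, 289, 475, 486 and 417 CPM in WT LPS libraries. In control libraries it had 365, 393, 375 and 309 CPM in KO, against 510.4, 542, 637 and 531 CPM in WT. Control groups were apart, and with LPS the WT library at 289 CPM lay within the KO range. Its log2 fold change of KO over WT was -0.62 ± 0.13 without LPS (SE, adjusted p = 0.0102, edgeR) and -0.38 ± 0.11 with LPS (adjusted p = 0.0400). The control call ended without WT control replicate 3 (adjusted p = 0.0599). LPS lowered it, by a log2 fold change of -0.43 ± 0.12 in WT cells (adjusted p = 0.00242), and in KO cells the value of -0.19 ± 0.12 did not pass (adjusted p = 0.154).

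Top2a, the topoisomerase that untangles sister chromatids, had 182, 240.2, 230.4, 199 and 219 CPM in KO LPS libraries, against 307, 158, 330.0, 332 and 259.9 CPM in WT LPS libraries. Without LPS it had 275, 284, 285 and 295 CPM in KO, against 414, 400.0, 442 and 379 CPM in WT. All 4 KO control libraries lay close together and below every WT control library. The genotype difference was log2 -0.52 ± 0.15 in control cells (adjusted p = 0.0835, edgeR) and -0.37 ± 0.14 with LPS (adjusted p = 0.0888), and LPS lowered it in both genotypes, by log2 fold changes of -0.41 ± 0.14 in KO cells and -0.56 ± 0.14 in WT cells.

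Among the cyclins and CDK1, Ccna2, which encodes cyclin A2, had 28.8, 29.7, 37.0, 33.4 and 28.7 CPM in KO LPS libraries, against 54.2, 21.7, 55.3, 55.5 and 43.6 CPM in WT LPS libraries. Levels in control libraries were 67.4, 71.9, 68.0 and 79.4 CPM in KO, against 102, 100.0, 99.6 and 90.0 CPM in WT. With LPS 4 WT libraries lay above all KO libraries and 1 below them. LPS lowered Ccna2, by log2 fold changes of -1.18 ± 0.17 in KO cells and -1.09 ± 0.17 in WT cells, and KO was lower with LPS, at -0.55 ± 0.17 (adjusted p = 0.0423, edgeR).

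Ccnf, an F-box protein that is itself a cyclin, had 12.1, 14.3, 16.9, 13.2 and 12.0 CPM in KO LPS libraries, against 25.7, 8.12, 25.05, 25.3 and 19.0 CPM in WT LPS libraries. The control libraries held 40.1, 41.4, 41.4 and 40.8 CPM in KO, against 59.8, 63.1, 59.1 and 53.7 CPM in WT, so the KO control libraries were nearly alike. The LPS fall was log2 -1.58 ± 0.20 in KO cells and -1.51 ± 0.19 in WT cells, the largest of the 5 genes. Ccnb2 fell, by log2 fold changes of -1.02 ± 0.18 and -0.90 ± 0.17, while Cdk1, the kinase partner of Ccnb2, had values of -0.16 ± 0.13 and -0.18 ± 0.12 that did not pass. Ccnb1, the mitotic cyclin B1, fell in WT cells, at -0.45 ± 0.18 (adjusted p = 0.0309, edgeR), a call that ended when WT control replicate 1, 2 or 3 or WT LPS replicate 5 was left out (adjusted p up to 0.0709), and had -0.34 ± 0.19 in KO cells.

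All 6 genes of the spindle checkpoint and the APC/C fell with LPS in both genotypes, from Ube2c at the least to Ttk at the most. Ttk, the kinase that starts checkpoint signalling at unattached kinetochores, had 1.69, 1.68, 2.82, 2.05 and 1.70 CPM in KO LPS libraries, against 3.27, 1.43, 3.68, 3.74 and 2.57 CPM in WT LPS libraries. Untreated, it stood at 9.01, 10.3, 10.5 and 11.7 CPM in KO, against 12.4, 13.2, 13.9 and 12.5 CPM in WT. Every LPS library lay below every control library, and the fall was log2 -2.38 ± 0.18 in KO cells (adjusted p = 1.70e-10, edgeR) and -2.13 ± 0.17 in WT cells (adjusted p = 3.07e-10).

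Cdc20, the APC/C activator that the checkpoint holds back, had 7.58, 7.27, 9.19, 9.22 and 8.42 CPM in KO LPS libraries, against 16.6, 4.44, 16.7, 16.7 and 12.4 CPM in WT LPS libraries. Without LPS the values were 30.4, 32.3, 31.1 and 34.2 CPM in KO, against 48.0, 49.3, 47.5 and 41.1 CPM in WT. With LPS 4 WT libraries stood above every KO library, and WT LPS replicate 2 at 4.44 CPM below them all. The genotype difference with LPS was the widest of the 46 at log2 -0.69 ± 0.22, with an adjusted p of 0.0514 that misses the threshold.

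Ube2c, the ubiquitin-conjugating enzyme of the APC/C, had 17.7, 21.0, 22.7, 21.6 and 19.5 CPM in KO LPS libraries, against 31.5, 13.53, 36.2, 32.2 and 26.2 CPM in WT LPS libraries. Without LPS it had 28.6, 33.7, 31.0 and 37.3 CPM in KO, against 48.9, 48.8, 47.5 and 42.0 CPM in WT. Control groups did not overlap. The LPS fall was log2 -0.67 ± 0.17 in KO cells and -0.74 ± 0.17 in WT cells. Bub1, Bub1b and Mad2l1, the checkpoint proteins at the kinetochore, fell by between 0.88 and 1.24 on the log2 scale over both genotypes.

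The mitotic kinases Plk1 and Aurka fell with LPS in both genotypes. Plk1, which acts in mitotic entry, at kinetochores and in cytokinesis, had 9.16, 12.4, 15.8, 11.6 and 11.9 CPM in KO LPS libraries, against 19.8, 7.71, 22.6, 20.9 and 18.2 CPM in WT LPS libraries. Control values were 27.9, 30.4, 29.4 and 30.1 CPM in KO, against 44.3, 47.0, 41.9 and 37.7 CPM in WT. Its LPS fall was log2 -1.27 ± 0.19 in KO cells and -1.25 ± 0.19 in WT cells. Aurka, the kinase of the spindle poles, had 6.14, 6.08, 7.91, 8.67 and 7.16 CPM in KO LPS libraries, against 14.0, 4.85, 13.6, 12.8 and 9.69 CPM in WT LPS libraries, and 18.0, 20.1, 18.0 and 22.9 CPM in KO control, against 25.8, 27.7, 27.9 and 23.3 CPM in WT control. Its LPS groups overlapped through WT LPS replicate 2 alone, and its genotype difference with LPS, log2 -0.62 ± 0.20, stood at the threshold without passing it (adjusted p = 0.05003, edgeR).

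Of the chromosomal passenger complex, which corrects faulty attachments and later acts at the midzone, Birc5 (survivin) had 17.5, 25.4, 27.9, 23.1 and 24.7 CPM in KO LPS libraries, against 43.5, 18.1, 41.9, 41.1 and 34.1 CPM in WT LPS libraries. The control libraries held 36.1, 39.5, 35.7 and 47.3 CPM in KO, against 56.4, 53.5, 54.2 and 47.7 CPM in WT. With LPS the KO libraries reached 27.9 CPM, and 4 WT libraries began at 34.1 CPM. KO was lower with LPS, at log2 -0.59 ± 0.17 (adjusted p = 0.0320, edgeR), and without LPS the value was -0.42 ± 0.18 (adjusted p = 0.298). Its kinase Aurkb and scaffold Incenp fell with LPS by between 1.06 and 1.18 on the log2 scale, and the borealin gene Cdca8 by log2 -0.46 ± 0.17 in KO and -0.40 ± 0.17 in WT. The Cdca8 call ended in KO cells without KO control replicate 4 or KO LPS replicate 1 (adjusted p up to 0.0713), and in WT cells without WT control replicate 1, 2 or 3 or WT LPS replicate 5 (up to 0.0764).

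The centromere and corona genes spanned the widest range of genotype differences of the 11 roles, from log2 -0.68 to -0.06 without LPS and from -0.52 to -0.08 with LPS. Cenpf, a large protein of the outer corona, had 11.7, 13.4, 16.5, 13.7 and 14.8 CPM in KO LPS libraries, against 20.0, 8.12, 28.1, 26.0 and 18.0 CPM in WT LPS libraries. In control libraries it had 44.2, 49.3, 47.8 and 46.6 CPM in KO, against 69.6, 78.6, 83.7 and 70.2 CPM in WT, with a clear gap between the groups. Its genotype difference without LPS was the widest of the 46 at log2 -0.68 ± 0.20, yet its adjusted p was 0.0830 (edgeR). LPS lowered it, by log2 fold changes of -1.74 ± 0.20 in KO cells and -1.91 ± 0.20 in WT cells.

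Cenpa, the histone H3 variant that marks centromeres, had 19.8, 18.5, 21.99, 21.8 and 21.4 CPM in KO LPS libraries, against 28.8, 15.2, 31.5, 28.8 and 25.03 CPM in WT LPS libraries. Without LPS the values were 33.5, 36.9, 33.8 and 41.3 CPM in KO, against 46.7, 48.4, 45.5 and 40.6 CPM in WT, with 1 KO library above the lowest WT library. Of the inner kinetochore subunits Cenph and Cenpk, Cenph had 1.08, 1.63, 1.43, 1.85 and 1.85 CPM in KO LPS libraries, against 2.42, 1.17, 2.59, 2.57 and 2.04 CPM in WT LPS libraries, and 5.52, 4.72, 4.99 and 6.91 CPM in KO control, against 7.08, 5.91, 6.05 and 6.91 CPM in WT control. Cenpk had 0.922, 1.24, 1.48, 1.35 and 1.203 CPM in KO LPS libraries, against 1.57, 0.919, 2.14, 1.85 and 1.47 CPM in WT LPS libraries, and 4.08, 4.64, 4.85 and 5.92 CPM in KO control, against 4.82, 5.06, 5.86 and 4.57 CPM in WT control. For both the control groups overlapped and the genotype differences, log2 -0.23 ± 0.16 and -0.06 ± 0.15, did not pass, while LPS lowered Cenpk, by log2 fold changes of -1.97 ± 0.18 in KO cells and -1.66 ± 0.17 in WT cells.

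All 4 subunits of the NDC80 complex, the microtubule grip of the kinetochore, fell with LPS in both genotypes. Spc24 had 11.2, 11.4, 13.2, 12.2 and 11.3 CPM in KO LPS libraries, against 18.1, 8.58, 18.1, 17.9 and 13.8 CPM in WT LPS libraries. Without LPS it had 17.9, 18.3, 19.0 and 21.2 CPM in KO, against 26.2, 24.5, 21.9 and 21.4 CPM in WT, the highest KO and lowest WT library being nearly equal. Its LPS change was log2 -0.68 ± 0.15 in KO cells and -0.62 ± 0.14 in WT cells. Spc25, its direct partner, fell, by log2 fold changes of -1.45 ± 0.16 and -1.26 ± 0.16, Ndc80 by -0.98 ± 0.17 and -0.93 ± 0.16, and Nuf2 by -0.58 ± 0.14 and -0.65 ± 0.14.

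Of the kinesins, 6 of 7 fell with LPS in both genotypes. Kif23, the motor of the centralspindlin complex, had 21.2, 25.1, 29.4, 25.3 and 26.0 CPM in KO LPS libraries, against 33.5, 16.6, 39.2, 36.4 and 29.3 CPM in WT LPS libraries. Levels in control libraries were 112, 121, 119 and 123 CPM in KO, against 135, 145, 144 and 131 CPM in WT. LPS lowered it, by a log2 fold change of -2.22 ± 0.15 in KO cells (adjusted p = 2.95e-11, edgeR) and -2.16 ± 0.15 in WT cells (adjusted p = 4.32e-11), and the genotype difference in control cells, -0.23 ± 0.15, did not pass (adjusted p = 0.565). Its centralspindlin partner Racgap1, listed with cytokinesis, had 35.0, 43.5, 44.4, 40.2 and 38.6 CPM in KO LPS libraries, against 62.4, 30.6, 60.5, 59.6 and 46.9 CPM in WT LPS libraries, and 74.6, 84.3, 80.0 and 83.2 CPM in KO control, against 112, 109, 113 and 99.6 CPM in WT control. Racgap1 fell, by log2 fold changes of -0.997 ± 0.14 in KO cells and -1.06 ± 0.14 in WT cells.

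The further kinesins that fell were Kif2c, which depolymerises microtubules at centromeres, at log2 -1.62 ± 0.20 in KO and -1.75 ± 0.19 in WT, the cytokinesis motors Kif20a and Kif20b, at -1.67 ± 0.22 and -1.40 ± 0.17 in KO, and the spindle motors Kif11 and Kif15, at -0.74 ± 0.15 and -0.38 ± 0.15 in KO. The Kif15 call in KO cells ended without KO control replicate 4 or KO LPS replicate 1 (adjusted p up to 0.0690). Of the cytokinesis genes, Ect2, which activates RhoA, fell, by log2 fold changes of -1.01 ± 0.15 in KO and -1.07 ± 0.14 in WT, and anillin (Anln), a scaffold of the contractile ring, by -1.62 ± 0.21 and -1.65 ± 0.20. The microtubule bundler Prc1 fell, by log2 fold changes of -1.09 ± 0.19 and -1.09 ± 0.18, while Nusap1, a spindle-stabilising protein, had -0.10 ± 0.14 and -0.27 ± 0.14 and did not pass in either genotype.

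All 5 condensin genes fell with LPS in both genotypes, from -0.55 ± 0.13 in Smc2 to -1.45 ± 0.15 in Ncapd2 in KO cells on the log2 scale. Smc4, the core ATPase subunit, had 68.2, 83.9, 81.8, 78.3 and 78.4 CPM in KO LPS libraries, against 94.5, 74.9, 107, 104 and 97.8 CPM in WT LPS libraries. Untreated, it stood at 119.6, 132, 124 and 147 CPM in KO, against 149, 152, 165 and 147 CPM in WT. WT LPS replicate 2 stood nearer to its group in Smc4 than in Cdc20 or Ccna2. KO was lower with LPS, at -0.29 ± 0.08 (adjusted p = 0.0282, edgeR), and the value in control cells was -0.23 ± 0.09 (adjusted p = 0.242). Ncapg and Ncaph, which belong to the condensin I complex, fell, by log2 fold changes of -1.06 ± 0.15 and -0.93 ± 0.13 in KO cells and by -1.19 ± 0.15 and -0.93 ± 0.13 in WT cells.

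**Figure D4:**
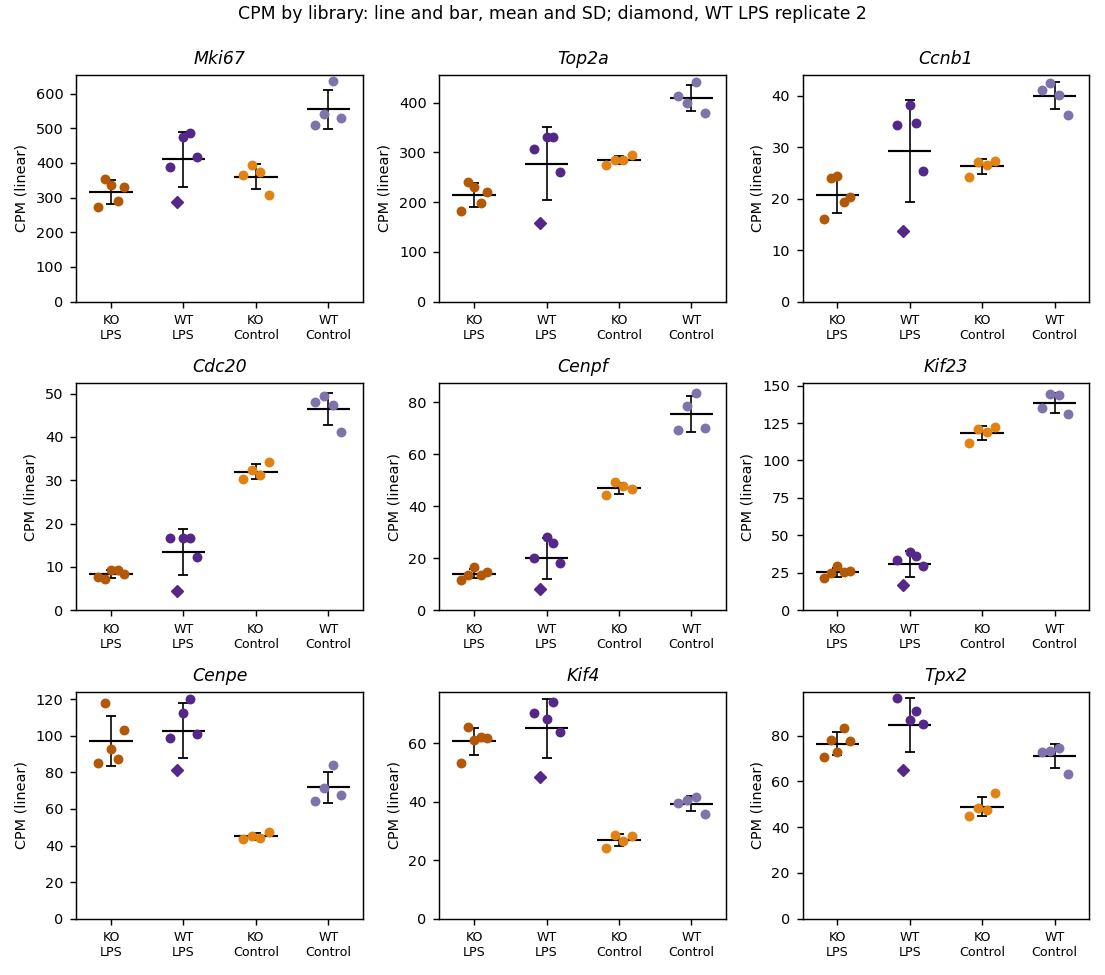
CPM of 9 of the genes in each library by group; the line is the group mean, the bar its SD, and the diamond is WT LPS replicate 2. In control samples every KO point lies below every WT point in the panels drawn, with LPS the diamond lies below the other WT points, and Cenpe, Kif4 and Tpx2 are higher in LPS than in control libraries of KO cells, while with totals in place of TMM factors Tpx2 is lower there.

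Kif4, Cenpe and Tpx2 did not follow the other genes. Kif4, a motor of chromosome arms and the spindle midzone, had 53.2, 65.6, 61.1, 62.1 and 61.7 CPM in KO LPS libraries, against 70.6, 48.4, 68.4, 74.3 and 64.0 CPM in WT LPS libraries. Control values were 24.4, 28.7, 26.7 and 28.1 CPM in KO, against 39.5, 40.6, 41.6 and 35.8 CPM in WT. Every LPS library lay above every control library of its genotype. With TMM factors Kif4 rose by log2 1.17 ± 0.10 in KO cells (adjusted p = 7.07e-10, edgeR) and 0.73 ± 0.10 in WT cells (adjusted p = 6.51e-07), while with totals alone it was still called higher in KO cells and stood at -0.0091 in WT cells (adjusted p = 0.940).

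Cenpe, which carries chromosomes to the spindle equator, had 85.2, 118, 92.5, 87.2 and 103 CPM in KO LPS libraries, against 98.8, 81.0, 113, 120.3 and 101 CPM in WT LPS libraries. In control libraries it had 43.5, 45.0, 44.0 and 47.6 CPM in KO, against 64.6, 71.5, 83.9 and 67.5 CPM in WT. KO and WT were apart without LPS and overlapped with LPS. With TMM factors Cenpe rose by log2 1.11 ± 0.11 in KO cells (adjusted p = 9.16e-09, edgeR) and 0.52 ± 0.11 in WT cells (adjusted p = 0.000163), while with totals alone it was still called higher in KO cells and stood at -0.22 in WT cells (adjusted p = 0.0945).

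Tpx2, which activates Aurka and seeds spindle microtubules, had 70.4, 78.1, 72.8, 83.4 and 77.8 CPM in KO LPS libraries, against 96.4, 65.0, 86.6, 90.7 and 85.0 CPM in WT LPS libraries. Levels in control libraries were 45.0, 48.3, 47.4 and 54.8 CPM in KO, against 72.7, 73.2, 74.7 and 63.2 CPM in WT. The LPS libraries of KO cells all lay above the control libraries of KO cells, and those of WT cells overlapped. With TMM factors Tpx2 rose by log2 0.65 ± 0.09 in KO cells (adjusted p = 1.63e-06, edgeR) and 0.26 ± 0.09 in WT cells (adjusted p = 0.0123), while with totals alone it stood at -0.14 in KO cells (adjusted p = 0.23) and -0.48 in WT cells (adjusted p = 0.00025). The WT call ended without WT control replicate 4 (adjusted p = 0.0559).

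Without LPS, the genotype differences of these genes were among the best resolved of the list. KO was lower, at log2 -0.55 ± 0.10 in Kif4 (adjusted p = 0.00532, edgeR), -0.67 ± 0.11 in Cenpe (adjusted p = 0.00234) and -0.54 ± 0.09 in Tpx2 (adjusted p = 0.00355), and no single library left out ended any of these calls. With LPS the values were -0.10 ± 0.09, -0.08 ± 0.10 and -0.15 ± 0.09, and none passed.

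Whether LPS acted differently in KO and WT cells was tested by the interaction of genotype and LPS. It called 1 of 46 members, Cenpe, at log2 0.59 ± 0.15 (adjusted p = 0.0328, edgeR), against 1.03% of all genes called with a higher and 2.79% with a lower interaction. Kif4 at 0.44 ± 0.13 (adjusted p = 0.0683) and Tpx2 at 0.39 ± 0.13 (adjusted p = 0.0935) did not pass. No member was called with a lower interaction, with 0 lower and 3 higher at an unadjusted p under 0.05 and 0 lower by DESeq2. At that unadjusted threshold 2233 of the 11989 genes differed in either direction, a larger share than that of the members. DESeq2 called 405 of all genes lower. The Cenpe call ended when KO control replicate 1, 2 or 3, WT control replicate 2 or 3, KO LPS replicate 5 or WT LPS replicate 1 or 5 was left out, with adjusted p-values up to 0.09, and without WT LPS replicate 2 the test called 3 members, Cenpe, Kif4 and Tpx2. Calls over all genes also rose without that library, to 536 of 11968 with a higher and 965 with a lower interaction. With the number in the titles as a replicate block the Cenpe value was 0.59 (adjusted p = 0.0525), and with the run of library numbers as a block it was 0.59 (adjusted p = 0.0283). Over all genes 334 lower and 124 higher interactions were called with TMM factors, against 232 and 174 with the size factors of DESeq2 in edgeR. The median interaction of the members was 0.01, against -0.05 over all genes, and the lowest was -0.31 ± 0.25 in Cenpk. In that fit 23 members had a value below 0 and 23 above. The median rested on WT LPS replicate 2. Without that library it was -0.14, against -0.05 over all genes, with 40 members below 0 and 6 above.

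**Figure D5:**
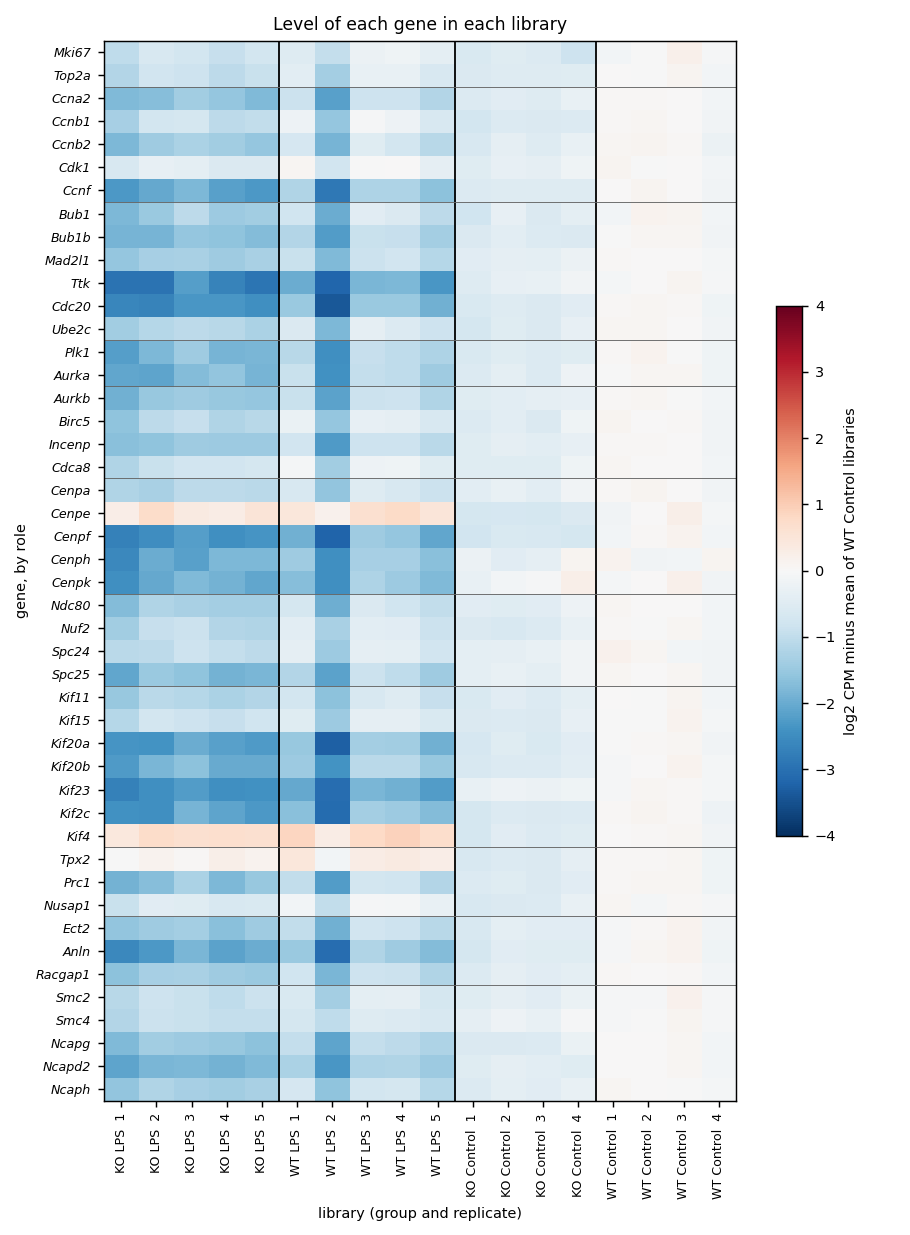
Log2 CPM of each of the 46 genes (rows, by role) in each of the 18 libraries (columns, by group and replicate), as the difference from the mean of the WT control libraries; blue is lower and red is higher. LPS libraries are blue in most rows, WT LPS replicate 2 is the darkest WT LPS column in most of them, and the rows of Cenpe and Kif4 are red in the LPS columns, which depends on TMM factors, since with totals alone Kif4 averages 46.7 CPM in KO LPS and 53.3 CPM in WT LPS, against 53.6 CPM in WT control, and Cenpe 74.8 CPM in KO LPS and 84.05 CPM in WT LPS, against 97.96 CPM in WT control.

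Spread between replicates was nearest to that of other genes in the control groups and widest in WT LPS. The median coefficient of variation of the members was 11.6% in KO LPS, 29.0% in WT LPS, 7.27% in KO control and 6.83% in WT control, against 8.68%, 12.6%, 6.91% and 6.28% over all genes tested. Among the 39 genes with a window, the LPS change of genes with CHR letters had a median log2 of -1.06 in KO and -1.09 in WT (29 genes), and that of genes with a window lacking them -0.82 and -0.77 (10 genes, Cenpe among them). The fold change of KO over WT moved with transcript length in control cells in the members (Spearman rho -0.46, n = 46) and over all genes (-0.40, n = 10749). With LPS rho was 0.30 and 0.21, and for the interaction 0.65 and 0.42. Genes share the libraries, so these are descriptions. The part of length in the genotype differences was not tested.

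Other cell cycle genes, in lists written with earlier results of these data known, moved to different extents. Their counts stand against 0.525% of all genes called lower in KO without LPS and 5.5% with LPS. Of 27 further spindle and cytokinesis genes, 4 were lower in KO without LPS, led by the microtubule polymerase Ckap5 at log2 -0.37 ± 0.07 (adjusted p = 0.00566, edgeR), with Ncapg2, Cep55 and Cit, and 4 with LPS, led by Ckap2l at -0.70 ± 0.14 (adjusted p = 0.00332), with Cdca3, Kif14 and Cep55. In 26 of these 27 the control groups did not overlap, against 5.45% of all genes, with a median of -0.47. Of 31 further kinetochore and centromere genes, 2 were lower without LPS (Spdl1 and Knl1) and 2 with LPS (Zw10 and Cenpo), the count with LPS being near the share over all genes. Cohesin and separase genes gave 2 lower of 15 without LPS (Rad21 and the separase gene Espl1) and 3 with LPS (Rad21, Smc1a and Sgo2a).

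Of 16 APC/C core subunits, Cdc26 alone was called with LPS, where it was lower in KO, a count near the share over all genes. The list's medians were -0.05 without LPS and -0.04 with LPS. Cdc26 was also called with a lower interaction, at log2 -0.45 ± 0.10 (adjusted p = 0.0150, edgeR), as were 2.79% of all genes. Of 22 regulators of mitotic transcription and entry, Mastl, the Greatwall kinase of mitotic entry, was lower without LPS, at log2 -0.52 ± 0.08 (adjusted p = 0.00143, edgeR), and E2f2, Wee1, Mybl2 and E2f8 were lower with LPS. Of 30 genes of the G1 to S transition and replication, 13 were lower with LPS, where the median was -0.35, and without LPS it was -0.08. Those with the lowest adjusted p were Tk1, Cdk2, Rrm2, Ccne1 and Gins1. In no list but the CDK inhibitors was a gene called higher in KO.

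Of 10 CDK inhibitors and quiescence genes listed, 9 were tested. With LPS, Cdkn1a, the p21 inhibitor of CDKs, averaged 2349.6 CPM in KO LPS and 1775 CPM in WT LPS, a log2 difference of 0.40 ± 0.11 (adjusted p = 0.0215, edgeR). Cdkn2d, which encodes the p19 inhibitor of CDK4 and CDK6, averaged 12.7 CPM in KO LPS and 24.3 CPM in WT LPS, a log2 difference of -0.94 ± 0.10 (adjusted p = 2.57e-06). Cdkn2d was also called with a lower interaction, at log2 -0.65 ± 0.14 (adjusted p = 0.0123, edgeR), as were 2.79% of all genes. No test was made over any of these lists.

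Markers of other cells were read beside these results, with sums and means in TPM, to which no TMM factors were applied. Monocyte and macrophage markers (10 of 10 tested) were the most abundant of these lists without LPS and with it, at sums of 1530 to 2477 TPM in KO LPS, 2025 to 2128 TPM in WT LPS, 3480 to 3860 TPM in KO control and 3749 to 3853 TPM in WT control. Of them 1 was called lower in KO with LPS. Lyz2 made up most of their sums, at means of 1623 TPM in KO LPS, 1855 in WT LPS, 3228 in KO control and 3412 in WT control. With LPS, Lyz2, Ccr2 and Csf1r averaged lower than without it in both genotypes, and the other markers of this list averaged higher. Plasmacytoid markers (4 of 6 tested) summed to 869 to 1000.04 TPM in KO LPS, 791 to 1081 TPM in WT LPS, 160.4 to 188 TPM in KO control and 147 to 159.5 TPM in WT control. Bst2 made up most of these sums, at means of 885 TPM in KO LPS, 872 in WT LPS, 159 in KO control and 134 in WT control. Of the others, Siglech and Ccr9 averaged lower with LPS than without in both genotypes and Tcf4 higher. Ly6d and Cox6a2 averaged at most 0.47 TPM in any group. The cDC2 markers (4 of 6 tested) summed to at most 109 TPM, and erythroid and platelet markers (1 of 6 tested) to at most 69.6 TPM, in a WT LPS library. Of the 13 cDC1 markers, 5 were lower and 2 higher in KO with LPS, and 1 was lower and 1 higher without LPS. Xcr1, the selected receptor, averaged 80.7 TPM in KO LPS and 128 TPM in WT LPS, and 49.1 TPM in KO control and 86.3 TPM in WT control. Neutrophil markers (4 of 8 tested) summed to 5.40 to 18.1 TPM in KO LPS, 7.81 to 537 TPM in WT LPS, 5.83 to 21.7 TPM in KO control and 7.71 to 258 TPM in WT control. The high values were those of WT LPS replicate 5 and WT control replicate 4, and WT LPS replicate 2 had 14.4 TPM. WT control replicate 4 was the lowest WT control library for 38 of the 46 genes, and without it 44 genes had control groups that did not overlap, against 7.37% of all genes. Myeloid progenitor markers (2 of 8 tested) summed to 40.2 to 48.3 TPM in KO LPS, 45.6 to 54.8 TPM in WT LPS, 112 to 132 TPM in KO control and 115 to 129 TPM in WT control. Kit made up most of these sums, at means of 40.9 TPM in KO LPS, 48.5 in WT LPS, 108 in KO control and 97.1 in WT control. Apart from Kit and Cd34, these markers averaged at most 0.435 TPM in any group. Ctsg, at 0 in every LPS library, averaged only 0.02 TPM in KO control and 0.04 in WT control. Lymphocyte markers reached at most 3 TPM, and mast cell markers 0.31 TPM. The part of these cells in the results was not tested.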

How the data were processed

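RNA of 18 libraries was sequenced as 150-base read pairs. The submitters' processing notes name HISAT, Bowtie2 and the build GRCm39. The counting program, annotation and handling of strand are not given in the sources used. Per the file headers, the authors deposited 3 values for each gene and library: an estimated count, the TPM and the FPKM. The deposited estimated counts were rounded to whole numbers for testing (6.37% were not whole at a tolerance of 0.001). The deposited TPM values served for levels between genes and for marker sums. The deposited FPKM values served only to derive effective transcript lengths, as the median over the libraries where a gene had at least 1 FPKM. Columns were matched to samples by library number.

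edgeR 4.0.16 (R 4.3.3) fitted a quasi-likelihood model with a mean for each group to all 18 libraries, with TMM factors and its filter (minimum count 10, minimum total 15, 11989 genes kept), and gave 5 contrasts with Benjamini-Hochberg adjustment over all genes. The biological coefficient of variation was 0.0934. Alternatives used DESeq2 1.42.0, limma-voom (limma 3.58.1), other scaling, no filter, the groups of a contrast alone, replicate blocks, and each library left out. The fit was tested on simulated counts. Libraries with neighbouring library numbers (runs) were correlated in their deviations from the group means: WT LPS and WT control libraries of a run were above 0.1 in all 4 pairs, and the other pairs of groups were not, so blocked values are given where they move a count. Replicates of a group differed beyond counting error in all 32 pairs (chi-square per degree of freedom 2.75 to 78.3).

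The members and all gene lists were chosen with earlier results of these data known. Values in every library are given for the member of each role with the highest mean TPM and for the members with the lowest and highest fold changes: 3 at each end of the genotype contrasts, 2 at each end of the LPS contrasts and the interaction, and any member called in the interaction. Promoter sequences and windows are RefSeq, build GRCm38.p6, searched on both strands.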

Additional observations from a re-analysis of the deposited data

Results flagged for a closer look

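In 184 sets of 1 gene and 1 group, 8 had a library far from the others by Dixon's criterion, where chance flags about 1 in 20 sets, or 9.2 of them. Values are CPM. In KO LPS, Aurkb was low in replicate 1 at 14.2, with the nearest library at 18.5. In KO control, Cdca8 was high in replicate 4 at 39.6 (nearest 31.9), Ndc80 was high in replicate 4 at 23.0 (nearest 19.5), Ncapg was high in replicate 4 at 30.1 (nearest 24.6) and Anln was low in replicate 1 at 22.6 (nearest 26.0). In WT control, Incenp was low in replicate 4 at 112 (nearest 126), Prc1 was low in replicate 4 at 46.004 (nearest 53.5) and Smc2 was high in replicate 3 at 100.2 (nearest 87.4). WT LPS replicate 2, the lowest WT LPS library for all 46 genes, did not meet the criterion for any of them.

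Cenpe was the member whose LPS change differed between KO and WT by a test of the difference itself, at a log2 interaction of 0.59 ± 0.15 (adjusted p = 0.0328, edgeR).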

How the results depend on the processing

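The genotype differences were lower in KO for all 46 members under every setting tried, in control samples and with LPS, except Cenpk in control samples without KO control replicate 1 (log2 0.018) and without WT control replicate 3 (0.017), and no member was called higher in KO. Members called lower in control samples numbered 4, against 14 by DESeq2, 10 by limma-voom, 44 with the control groups alone and 43 without the libraries numbered 5 and 7 (WT LPS replicate 2 and KO LPS replicate 2), and from 3 to 41 with 1 library left out. With LPS they numbered 7, against 18 with totals alone, 18 by DESeq2, 1 by limma-voom, 0 with the LPS groups alone and 45 without the libraries numbered 5 and 7, and from 0 to 45 with 1 library left out. That count was 0 without KO LPS replicate 1, 4 or 5 or WT LPS replicate 3 or 4, 1 without WT LPS replicate 1, 2 to 4 without WT LPS replicate 5 or a control library other than KO control replicate 4, 11 without KO LPS replicate 3, and 45 with WT LPS replicate 2 left out. Over all genes, 63 were called lower in control samples, against 163 by DESeq2, 105 by limma-voom and 405 with the control groups alone. It was 390 without the libraries numbered 5 and 7, and 20 to 270 with 1 library left out. With LPS 659 were called lower, against 1192 with totals alone, 700 by DESeq2, 519 by limma-voom and 313 with the LPS groups alone. It was 1484 without the libraries numbered 5 and 7, and 419 to 1694 with 1 library left out.

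LPS calls were steadier: 37 to 40 members fell and 3 rose in KO cells with 1 library left out, and 39 to 42 fell and 2 to 3 rose in WT cells. With totals alone 0 rose in WT cells, and the log2 change was -0.14 for Tpx2 in KO, -0.22 for Cenpe in WT, -0.0091 for Kif4 in WT and -0.48 for Tpx2 in WT, through the scaling itself. Higher interactions numbered 1, against 2 with the size factors of DESeq2 in edgeR, 0 with totals alone, 3 by DESeq2 and 3 without the libraries numbered 5 and 7, and from 0 to 3 with 1 library left out. Over all genes, higher interactions numbered 124, against 174 with those size factors, 97 with totals alone and 352 by DESeq2. They were 825 of 11950 without the libraries numbered 5 and 7, a share near that of the members, and 44 to 536 with 1 library left out. Groups did not overlap in 42 to 45 members in control samples (5.96% to 8.84% of all genes) and in 0 to 40 with LPS (3.5% to 9.61%) with 1 library left out, a count added after seeing the data. The cause of these shifts was not tested beyond what each setting changes.

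Equal replicate numbers in the titles, which here are also equal runs of library numbers, paired KO with WT libraries weakly at most. Correlations of deviations were 0.0287 to 0.248 in control and 0.00923 to 0.353 with LPS, all above 0. KO libraries correlated best with their own number in 2 of 4 and 3 of 5 cases, and WT libraries in 1 of 4 and 1 of 5. Between LPS and control libraries of the same run, correlations were 0.14 to 0.273 in WT in all 4 pairs, and -0.0308 to 0.136 in KO. With the number in the titles as a replicate block, 4 members were called lower in control samples, 1 with LPS and 0 higher in the interaction (49, 574 and 96 of all genes). With the run of library numbers as a replicate block the counts were 18, 19 and 2 (163, 950 and 250 of all genes), and 37 members fell in KO and 40 in WT with LPS (5601 and 5438 of all genes). Over all genes, calls in control samples (63 lower, 226 higher) became 163 and 331 by DESeq2, 405 and 490 with the control groups alone, and 270 and 481 without WT LPS replicate 2. Calls with LPS (659 and 635) became 313 and 306 with the LPS groups alone, and 1694 and 1650 without WT LPS replicate 2. Depth was even, and the median coefficient of variation of the members was widest in WT LPS, at 29.0%.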
